A study of Mus musculus with 24 samples.

Results

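The proteasome genes described here are 35 genes of the mouse whose symbols begin with Psma, Psmb, Psmc or Psmd, out of 54532 entries in the deposited expression table. They were chosen by symbol and level: 37 symbols of this form, Psmb8 and Psmb9 set aside, were listed, and 35 reached 1 FPKM (a fragment count scaled to gene length and library size) in at least 10 of 24 libraries. The 2 symbols below that level were Psmb11, whose product belongs to the proteasome of thymic cortical epithelium, and Psma8, the alpha subunit of the testis proteasome. All 35 passed the filter on low values used for testing.

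The proteasome degrades proteins tagged with ubiquitin. Its core particle (20S) is a barrel of stacked rings: outer alpha rings, built from Psma products, gate the entrance, and inner beta rings, built from Psmb products, hold the proteolytic sites. The regulatory particle (19S) caps the barrel. Its base carries a ring of ATPases, the Psmc products, that unfold substrates, and scaffold and receptor subunits such as Psmd1, Psmd2 and Psmd4, while its lid carries Psmd14, which removes ubiquitin chains as substrates enter. In liver, as elsewhere, interferon can exchange the catalytic beta subunits Psmb6, Psmb7 and Psmb5 for the inducible Psmb9, Psmb10 and Psmb8.

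The RNA came from hepatocellular carcinomas of FVB/N mice that carried Lap-tTA and Tet-O-MYC, in every group alike. In this model the Lap promoter drives the tetracycline transactivator in hepatocytes, which switches on a human MYC transgene once doxycycline is withdrawn, here 4 weeks after birth. Mice were then left for 4 to 5 weeks and imaged weekly until enrolment. A first treatment was followed 7 days later by a second one, and tumours were taken a set number of hours after that. The vehicle group, given the carrier alone by intraperitoneal injection, held 3 libraries at 24 h. No vehicle library came from another time, so comparisons of other times with vehicle also differ in hours since treatment. RMC-6272, an mTORC1-selective inhibitor given at 10 mg/kg by intraperitoneal injection, was sampled after 12 h in 1 library and after 24, 48 and 72 h in 3 libraries apiece. Sorafenib, a multikinase inhibitor given daily by mouth at 30 mg/kg, was sampled after 4 h (3 libraries), 24 h (2) and 48 h (2). A further 2 libraries came from mice given doxycycline at 100 µg/ml in drinking water, which turns the transgene off, and 2 from mice given RMC-4627, another mTORC1-selective inhibitor, at 10 mg/kg, all at 24 h. The low values of these 4 libraries follow other steps than those of the rest, and they are described apart at the end. The labels do not say whether replicates are separate mice, so p-values measure the spread between these libraries, whatever its source.

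In the 20 other libraries, steps in the low values put the depth at 17.6 to 41.6 M reads (median 34.9), and each of the 35 genes rested on an estimated 487 reads or more in every library. The shallowest library was RMC-6272 72 h replicate 3, which also had 6.24% of its summed FPKM in globin genes, against 0.546% or less in each of the other 19, and S100a8 and S100a9, genes of neutrophils, at 842 and 1665 FPKM. Hepatocyte markers were abundant: summed FPKM of 8 hepatocyte markers was 3162 to 5912 in vehicle libraries. Every vehicle library carries a description code whose first part occurs in no RMC-6272 or sorafenib library, so whatever that part stands for cannot be told apart from treatment in comparisons with vehicle. The same holds between RMC-6272 and sorafenib at 24 h and at 48 h.

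Members that moved together after RMC-6272 can be set against the DNA just before their start sites. RefSeq promoter entries on GRCm38.p6 were found for 29 of the 35 symbols, 2 of them with 2 entries; Psmb1, Psmb2, Psmb7, Psmc3, Psmd3 and Psmd7 are named only. The following sequences, 5′ to 3′ on the gene's strand, are the 250 bases before the start of Psmb3 and Psmd14, the largest falls at 24 h among the 29, and of Psmd10 and Psmd8, the only 2 members with a positive difference there. Capitals mark, on either strand, CCAAT (the box bound by NF-Y) and GGGCGG (the core of an Sp1 site), read there as the reverse complement where they lie on the other strand. These sequences lie at chr11:97703184-97703433 (plus strand), chr2:61711444-61711693 (plus strand), chrX:140956712-140956961 (minus strand) and chr7:29180674-29180923 (minus strand).
Psmb3: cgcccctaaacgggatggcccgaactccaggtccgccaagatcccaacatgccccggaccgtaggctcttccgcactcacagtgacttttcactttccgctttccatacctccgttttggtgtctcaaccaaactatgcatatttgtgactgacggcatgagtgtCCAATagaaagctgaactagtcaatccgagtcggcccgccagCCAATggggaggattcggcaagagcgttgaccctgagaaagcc
Psmd14: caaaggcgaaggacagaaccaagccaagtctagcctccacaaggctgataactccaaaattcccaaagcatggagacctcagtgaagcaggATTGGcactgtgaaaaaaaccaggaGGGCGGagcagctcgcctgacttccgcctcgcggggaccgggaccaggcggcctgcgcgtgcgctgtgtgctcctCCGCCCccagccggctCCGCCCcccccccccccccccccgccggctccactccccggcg
Psmd10: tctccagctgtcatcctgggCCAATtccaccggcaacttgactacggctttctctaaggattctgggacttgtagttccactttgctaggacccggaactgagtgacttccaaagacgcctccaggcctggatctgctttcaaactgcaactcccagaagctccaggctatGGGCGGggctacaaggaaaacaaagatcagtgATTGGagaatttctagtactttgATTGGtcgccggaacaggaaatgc
Psmd8: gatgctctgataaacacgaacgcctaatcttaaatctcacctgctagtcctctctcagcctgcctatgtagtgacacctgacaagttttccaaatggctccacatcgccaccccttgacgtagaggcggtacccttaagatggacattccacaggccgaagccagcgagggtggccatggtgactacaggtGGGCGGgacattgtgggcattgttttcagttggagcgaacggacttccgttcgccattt

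The printed stretches show that a given motif stood before genes of either kind. Psmb3 had CCAAT 85 and 43 bases before its start and Psmd14 had it 159 bases before, with GGGCGG 134, 59 and 43 bases before. Psmd10, which did not fall, had CCAAT 230, 47 and 24 bases before its start and GGGCGG 79 bases before. Psmd8 had GGGCGG 59 bases before its start and no CCAAT in this window. Over the 29 genes, CCAAT occurred before 11 (37.9%, against 33.8% of 32851 promoter entries) and GGGCGG before 17 (58.6% against 32.7%). The ETS-type motif CCGGAAG occurred before 9 (31.0% against 6.91%). The E-box CACGTG, the preferred sequence of MYC with MAX, occurred before 3 (10.3% against 6.02%), namely Psma4, Psmb10 and Psmd9. TGACNNNGC, the core of the antioxidant response element that NFE2L1 and NFE2L2 bind, occurred before 5 (17.2% against 10.2%). Of the 16 genes with an entry that fell at 24 h, 6 had CCAAT, 3 CCGGAAG, 10 GGGCGG and 2 CACGTG; of the 13 others, 5, 6, 7 and 1 did. All of these are matches of letters on both strands in 250 bases, not measured binding sites.

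In vehicle-treated tumours the core-particle genes were the most abundant. Median vehicle means were 120 FPKM over the 7 beta-ring genes, 105 FPKM over the 7 alpha-ring genes, 88.2 FPKM over the 6 ATPase genes and 51.5 FPKM over the 8 lid genes. Products of the core are needed in equal numbers, yet the 14 ring genes ranged from 32.8 FPKM for Psmb7 to 139 FPKM for Psma6. Such levels per length depend on the exon lengths the authors used. At the top stood Psmc5, an ATPase, at 146 ± 33.4 FPKM (SD, n = 3), followed by Psma6 at 139 ± 14.4 and Psma5 at 139 ± 8.68 (SD, n = 3 each). These neighbours in the order lay within each other's spread. The 3 chaperones named Psmd, which help assemble the ATPase ring and are not subunits of the finished proteasome, stood far below. Psmd10 was at 12.8 ± 0.470, Psmd5 at 8.96 ± 1.39 and Psmd9 at 8.72 ± 1.11 FPKM (SD, n = 3 each).

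At 24 h after the second dose of RMC-6272, proteasome genes were lower than with vehicle across both particles. The fall passed the test for 21 of the 35 (limma on log2(FPKM + 1), Benjamini-Hochberg adjusted p under 0.05 over 13594 genes), and no member rose. Among all genes tested, 20.3% fell and 14.8% rose. The members' median log2 difference was -0.57 and that of all genes -0.01. Members ranged from -1.07 for Psmd7 to 0.31 for Psmd8, and 33 of 35 were negative. Every library of 1 group lay below every library of the other for 20 members, an ordering that 26.8% of all genes showed in this direction. In bulk tumour RNA, fewer cells of a type and less RNA per cell cannot be told apart.

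**Figure D1:**
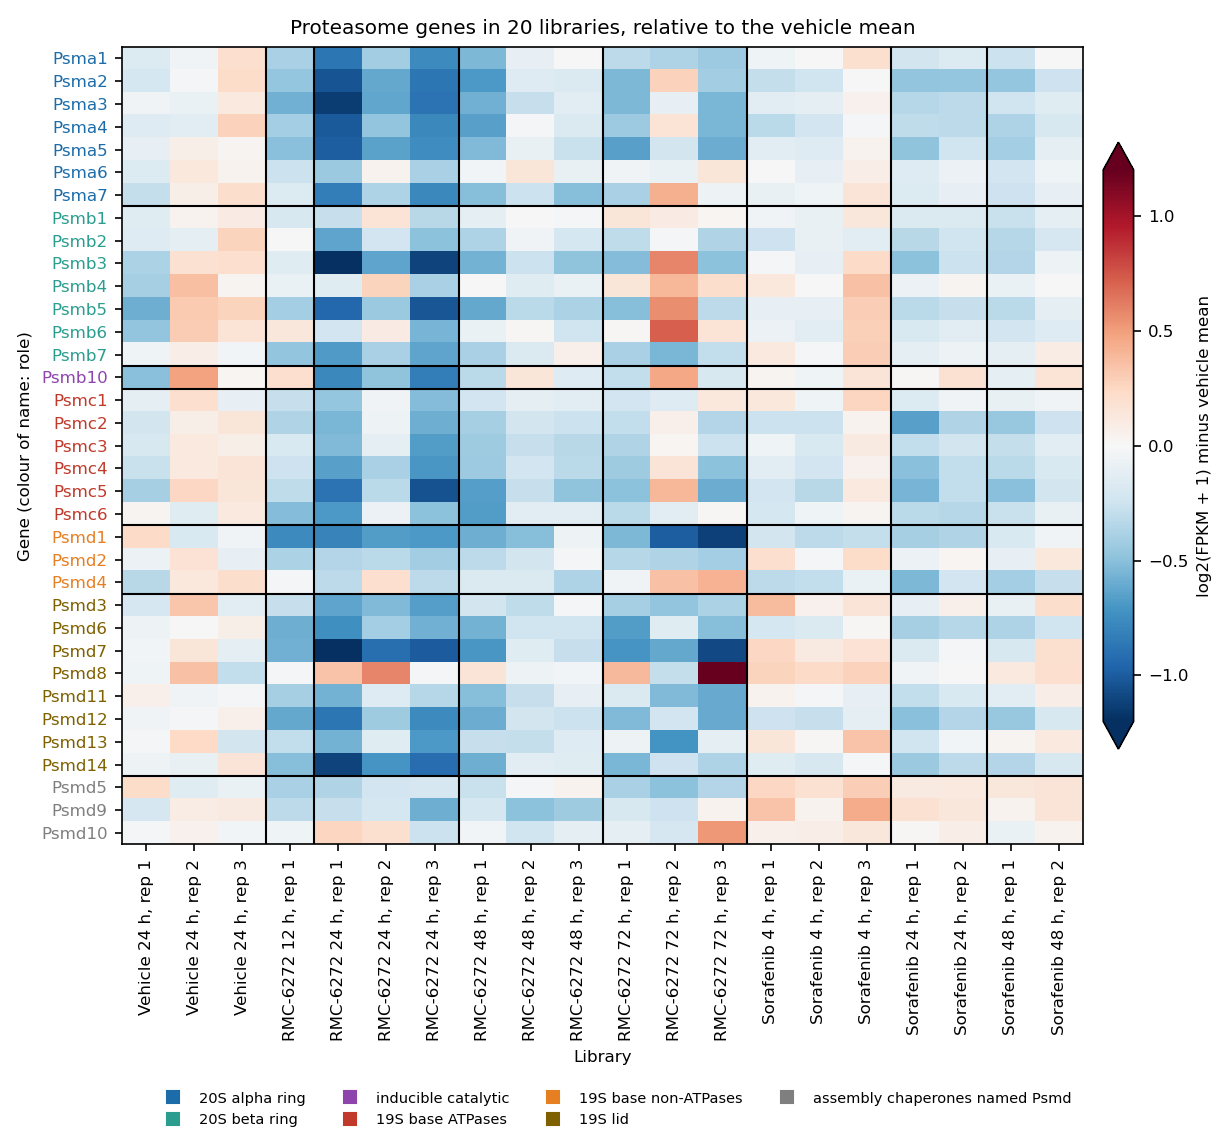
Colour gives log2(FPKM + 1) minus the vehicle mean for each of the 35 genes (rows, names coloured by role) in each of the 20 libraries (columns, grouped by treatment and time); blue is lower and red higher, and values past 1.2 take the end colour. The RMC-6272 24 h columns hold the darkest blue, most of all in replicates 1 and 3, while Psmd8 is dark red in RMC-6272 72 h replicate 3.

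The fall was not even among the 3 libraries. Replicate 2 was the highest of the RMC-6272 24 h group for 33 of 35 members, and its median member lay 0.33 below the vehicle mean on the log2 scale, against 0.65 in replicate 1 and 0.66 in replicate 3. Summed over the 35 genes, FPKM was 1640, 2170 and 1631 in replicates 1 to 3, and 2244, 2876 and 2779 in the vehicle libraries. The groups did not overlap in this sum, and vehicle replicate 1 was the lowest of its group for 24 members. FPKM summed over all entries used was 412842, 500708 and 360325 in RMC-6272 24 h replicates 1 to 3. It was 324724, 414032 and 403510 in vehicle replicates 1 to 3. Within their groups, RMC-6272 replicate 2 was thus also highest and vehicle replicate 1 lowest over all entries. Leaving out single libraries moved the count of members called from 12 (without vehicle replicate 3, or without RMC-6272 replicate 1) and 13 (without RMC-6272 replicate 3) to 26. In those fits 24.5 to 30.9% of all genes were called in either direction. Of the 21 genes called, 7 passed the test in each of 16 other settings: Psma2, Psma3, Psma5, Psmb7, Psmd3, Psmd12 and Psmd14.

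The alpha ring fell nearly as a whole, with 6 of 7 genes called and a median log2 difference of -0.75. Psma3 read 65.1, 63.2 and 72.9 FPKM in the vehicle libraries and 29.9, 43.2 and 35.9 FPKM at 24 h of RMC-6272. The groups were well separated, with a log2 difference of -0.88 (SE 0.16, limma adjusted p = 0.00168). Psma5 (-0.79), Psma2 (-0.84), Psma4 (-0.75), Psma1 (-0.68) and Psma7 (-0.66) fell by similar log2 amounts. Psma6, in the same ring, was the alpha gene that did not pass: 123, 151 and 142 FPKM in vehicle against 101, 142 and 105 FPKM. Its groups overlapped, and its log2 difference was -0.27 (95% interval -0.58 to 0.05, limma adjusted p = 0.171).

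The beta ring was divided: Psmb3, Psmb5, Psmb7 and Psmb2 fell, and Psmb1, Psmb4 and Psmb6 did not pass the test. Psmb3, a structural beta subunit, had the ring's largest log2 difference, -0.98 (SE 0.27, limma adjusted p = 0.0113), from 91.3, 136 and 137 FPKM in vehicle to 51.0, 76.7 and 54.8 FPKM. Psmb7, the trypsin-like catalytic subunit, moved from 31.6, 34.7 and 32.1 FPKM to 20.03, 24.8 and 20.8 FPKM, with no overlap and a log2 difference of -0.57 (SE 0.14, limma adjusted p = 0.00638). Psmb5, the chymotrypsin-like catalytic subunit and the main target of proteasome inhibitor drugs, read 76.6, 143 and 139 FPKM in vehicle and 59.3, 84.3 and 55.9 FPKM with RMC-6272. Here RMC-6272 replicate 2 lay above vehicle replicate 1, and the log2 difference was -0.81 (SE 0.28, limma adjusted p = 0.0363). Psmb4, a non-catalytic subunit needed late in ring assembly, read 95.8, 163 and 129 FPKM in vehicle and 114, 152 and 96.2 FPKM with RMC-6272. These values overlapped throughout, and the 95% interval of its log2 difference ran from -0.50 to 0.32. Psmb6, the caspase-like catalytic subunit, had a log2 difference of -0.23 (95% interval -0.72 to 0.26).

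**Figure D2:**
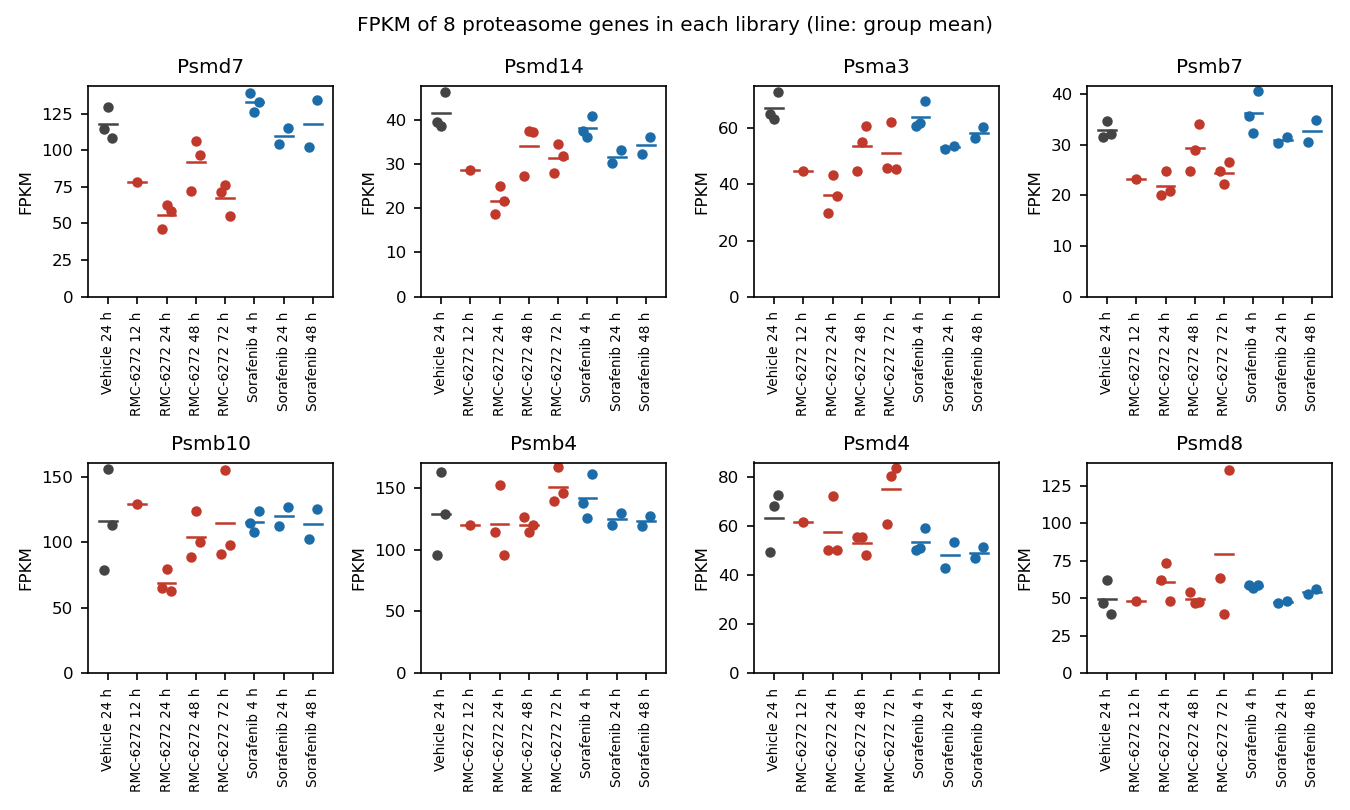
FPKM (vertical axis, from 0) of 8 genes in each library (points) of 8 groups (horizontal axis), with a line at each group mean; grey is vehicle, red RMC-6272 and blue sorafenib. Psmd7, Psmd14, Psma3 and Psmb7 are lowest at RMC-6272 24 h or 72 h, Psmb4 and Psmd4 overlap across groups, and 1 RMC-6272 72 h library stands at 136 FPKM for Psmd8.

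In the base, 3 of 6 ATPases and 2 of the 3 others passed the test. Psmc4, an ATPase of the base ring, read 68.8, 90.1 and 92.6 FPKM in vehicle and 52.7, 63.3 and 50.8 FPKM at 24 h of RMC-6272, without overlap. Its log2 difference was -0.58 (SE 0.18, limma adjusted p = 0.0213). Psmc5 (-0.75) and Psmc3 (-0.44) also fell, each with overlapping libraries. Psmc1 read 89.0, 110 and 89.5 FPKM in vehicle and 69.1, 92.9 and 66.6 FPKM with RMC-6272, with replicate 2 inside the vehicle range. Psmc1, Psmc2 and Psmc6 had log2 differences of -0.34, -0.40 and -0.42, each with an unadjusted p under 0.05 and an adjusted p above it (0.0953, 0.0802 and 0.0794). Psmd1, the large scaffold of the base, read 22.9, 17.0 and 18.8 FPKM in vehicle and 10.7, 11.8 and 11.6 FPKM with RMC-6272, a tight group wholly below vehicle. Its log2 difference was -0.72 (SE 0.16, limma adjusted p = 0.00456), and that of Psmd2, the other scaffold, -0.36 (SE 0.13, adjusted p = 0.0377). Psmd4, a ubiquitin receptor, read 49.4, 68.4 and 72.6 FPKM in vehicle and 50.2, 72.2 and 50.2 FPKM with RMC-6272. The groups overlapped, with a log2 difference of -0.14 (95% interval -0.54 to 0.26).

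The lid held both the largest fall and the highest positive value. Psmd7, the inactive partner of the lid's deubiquitylase, read 115, 130 and 108 FPKM in vehicle and 46.2, 62.3 and 58.3 FPKM at 24 h of RMC-6272. The groups lay far apart, with a log2 difference of -1.07 (SE 0.18, limma adjusted p = 0.00108). Psmd14, the deubiquitylase itself, read 39.6, 38.7 and 46.3 FPKM in vehicle and 18.6, 24.9 and 21.5 FPKM with RMC-6272, again without overlap. Its log2 difference was -0.91 (SE 0.15, limma adjusted p = 0.00104). Psmd12, Psmd3 and Psmd6, structural lid subunits, had log2 differences of -0.69, -0.61 and -0.58 and fell. Psmd11, a lid subunit whose level has been tied to proteasome assembly in stem cells, read 23.1, 21.5 and 21.8 FPKM in vehicle and 14.6, 19.8 and 17.3 FPKM with RMC-6272. Its libraries did not overlap, yet the log2 difference of -0.35 did not pass (limma adjusted p = 0.0729). Psmd8, the last subunit to join the lid in assembly, read 46.5, 61.9 and 39.2 FPKM in vehicle and 61.8, 73.1 and 47.8 FPKM with RMC-6272. Its log2 difference was 0.31 (95% interval -0.36 to 0.97).

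None of the 3 assembly chaperones named Psmd passed the test at 24 h. Psmd9 read 7.44, 9.31 and 9.42 FPKM in vehicle and 6.97, 7.37 and 5.45 FPKM with RMC-6272, a log2 difference of -0.36 with no overlap (limma adjusted p = 0.0666). On the reference annotation, exons of Gm26745 on the opposite strand cover 25.5% of the exon length of Psmd9, and no source used here says whether strand was counted. Psmd10, also called gankyrin, read 12.6, 13.4 and 12.5 FPKM in vehicle and 15.5, 14.8 and 10.6 FPKM with RMC-6272. Its log2 difference was 0.06 (95% interval -0.30 to 0.43), and the sign turned negative under TPM scaling and without RMC-6272 replicate 1. The 14 members that did not pass had a median vehicle mean of 44.2 FPKM, against 83.8 FPKM for the 21 that fell.

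**Figure D3:**
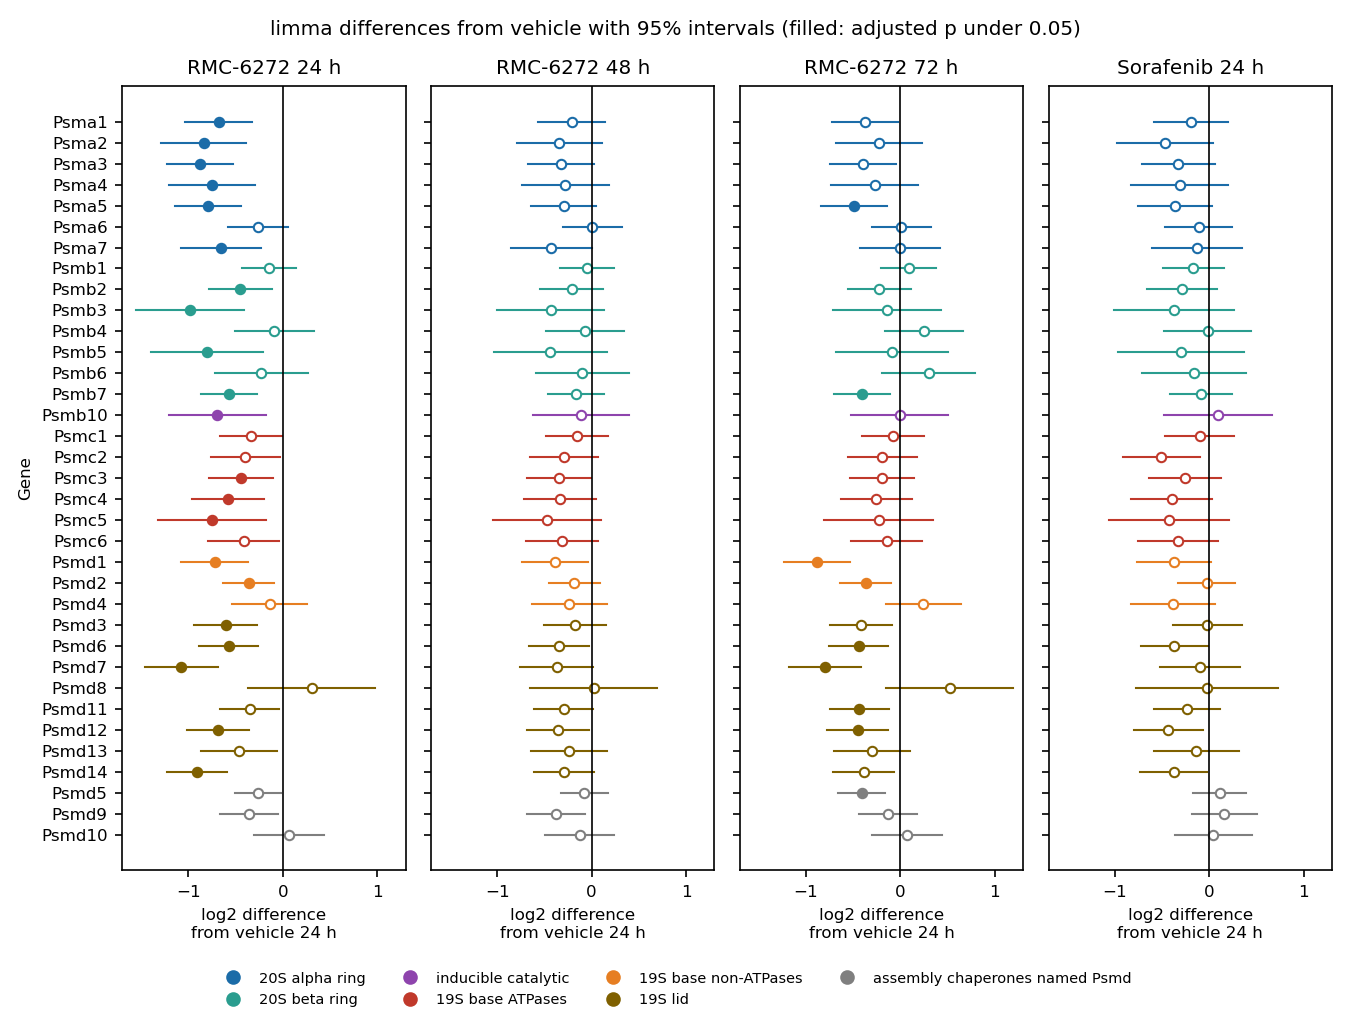
Points give each member's log2 difference from vehicle (horizontal axis) and bars its 95% interval from limma, for RMC-6272 at 24, 48 and 72 h and sorafenib at 24 h; filled points passed an adjusted p of 0.05. Filled points number 21 at RMC-6272 24 h, 0 at 48 h, 9 at 72 h and 0 with sorafenib, and nearly all intervals of the 24 h panel centre left of 0.

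Among genes that work with these subunits, those of core assembly fell with them at 24 h, where 20.3% of all genes fell. Of 5 assembly factors 4 fell: Psmg3 by 1.19, Psmg2 by 0.75, Psmg1 by 0.70 and Pomp, the maturation factor of the beta rings, by 0.59 on the log2 scale. Of 6 further regulatory-particle proteins, 2 fell, both deubiquitylases that bind the proteasome: Uchl5 by 1.17 (limma adjusted p = 0.00203) and Usp14 by 0.59 (adjusted p = 0.0104). Of 5 activators and inhibitors of the core, Psme3, the nuclear activator PA28gamma, fell by 1.01 (adjusted p = 0.00113) and Psmf1, an inhibitor, by 0.37. The interferon-inducible activators Psme1 and Psme2 had log2 differences of 0.23 and -0.10 and did not pass, and the sign of Psme2 turned under quantile normalization and without either of 2 single libraries. Shuttle and delivery factors fell in 4 of 12 cases, Ubqln4 by 0.73 and Ubqln1 by 0.57 among them, and genes of ubiquitin and its activation in 3 of 9, including the conjugating enzymes Ube2l3 (1.00) and Ube2n (0.96).

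Regulators of proteasome transcription did not move in 1 direction at 24 h, where 14.8% of all genes rose and 20.3% fell. Nfe2l1, the factor that raises proteasome genes when degradation fails, read 27.0, 30.7 and 26.0 FPKM in vehicle and 29.8, 34.3 and 26.9 FPKM at 24 h of RMC-6272. These overlap, and its log2 difference of 0.11 did not pass the test (limma adjusted p = 0.575). Of 11 regulators listed, 3 rose and 2 fell: Stat3 by 0.91, Ngly1, which activates NFE2L1, by 0.71 and Mafg by 0.40 upward, and the NF-Y subunits Nfyb by 0.98 and Nfyc by 0.65 downward. Nfya had a log2 difference of -0.10. Of 12 genes of proteotoxic stress, Sqstm1 and Ddit3 rose and Hsph1 fell.

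Other multi-subunit complexes gave a setting for these counts. Of all genes tested at 24 h, 14.8% rose and 20.3% fell. In the CCT chaperonin, which folds actin and tubulin, 7 of 8 genes fell at 24 h with a median log2 difference of -0.86. The V-type ATPase, the proton pump of the lysosome, had 2 of 15 genes higher, Atp6v0a1 and Atp6v0d1, and none lower. Mitochondrial ribosomal protein genes fell in 44 of 77 cases (median log2 difference -0.63), close to the proteasome members' -0.57. Cytosolic ribosomal protein genes fell in 4 of 87 (median 0.03). Whether these sets differ from the proteasome genes was not tested.

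Some cell-type markers rose at the same time, where 14.8% of all genes rose. At 24 h of RMC-6272, 4 of 8 hepatocyte markers rose (summed FPKM 9170 to 25549, against 3162 to 5912 in vehicle), as did 2 of 8 macrophage markers (Cd68 and Lyz2; summed FPKM 1284 to 1483 against 501 to 688) and 2 of 6 stellate markers (Pdgfrb and Des; 68.9 to 122 against 31.8 to 84.4). Neutrophil markers summed to 10.9 to 39.1 FPKM against 1.28 to 2.92, with Ly6g at 0 in all 3 libraries, and none of the 4 tested passed. None of 4 T and NK cell markers tested passed (4.38 to 5.31 against 4.09 to 4.95 FPKM over 8 markers). Nor did any of the 6 endothelial, 3 bile duct, 3 red cell and 1 B cell markers tested. Mki67, a gene of dividing cells, fell by 1.42 on the log2 scale (limma adjusted p = 0.00156), and Myc rose by 1.52 (adjusted p = 0.00305), from 2.02, 1.73 and 1.14 FPKM in vehicle to 6.32, 6.68 and 6.47 FPKM. Whether reads of the human transgene count toward this mouse gene is not given in the sources used here. The part of these in the proteasome genes' fall was not tested.

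The inducible catalytic subunits did not behave as a unit. Psmb8 rose at 24 h of RMC-6272, from 4.26, 7.10 and 1.78 FPKM in vehicle to 7.89, 16.1 and 5.83 FPKM. Its groups overlapped, and the log2 difference was 1.04 (SE 0.37, limma adjusted p = 0.0388). Psmb10 fell over the same libraries, from 78.8, 156 and 113 FPKM to 65.0, 79.5 and 62.7 FPKM, with RMC-6272 replicate 2 just above vehicle replicate 1. The log2 difference was -0.70 (SE 0.24, adjusted p = 0.0359), and this call held in 8 of 16 other settings. Psmb9 read 2.84, 4.47 and 1.37 FPKM in vehicle and 3.27, 6.96 and 2.91 FPKM with RMC-6272, a log2 difference of 0.47 that did not pass (adjusted p = 0.248). Of 16 other genes of the interferon-gamma response, Tap2 and Tapbp, which serve peptide loading onto MHC class I, rose, and none fell. Of all genes, 14.8% rose and 20.3% fell in this comparison.

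Set against its constitutive partner, Psmb8 stood at 1.28 to 5.56% of Psmb5 in vehicle and 10.4 to 19.1% at 24 h of RMC-6272, without overlap. It was 6.29 to 14.4% at 48 h, also above vehicle, and 4.60 to 15.6% at 72 h, overlapping it. The exact two-sided permutation p was 0.10 at 24 and 48 h, the smallest that 3 against 3 allows, and 0.30 at 72 h. Psmb9 stood at 0.998 to 3.24% of Psmb6 in vehicle and 3.14 to 5.32% at 24 h (exact permutation p = 0.20). Psmb10, in contrast, exceeded its partner in every library: it stood at 249 to 451% of Psmb7 in vehicle and 301 to 325% at 24 h (exact permutation p = 0.70). These 3 ratios at 24 h were not adjusted for one another. Exons of Nek6 on the opposite strand cover 11.8% of the exon length of Psmb7.

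**Figure D4:**
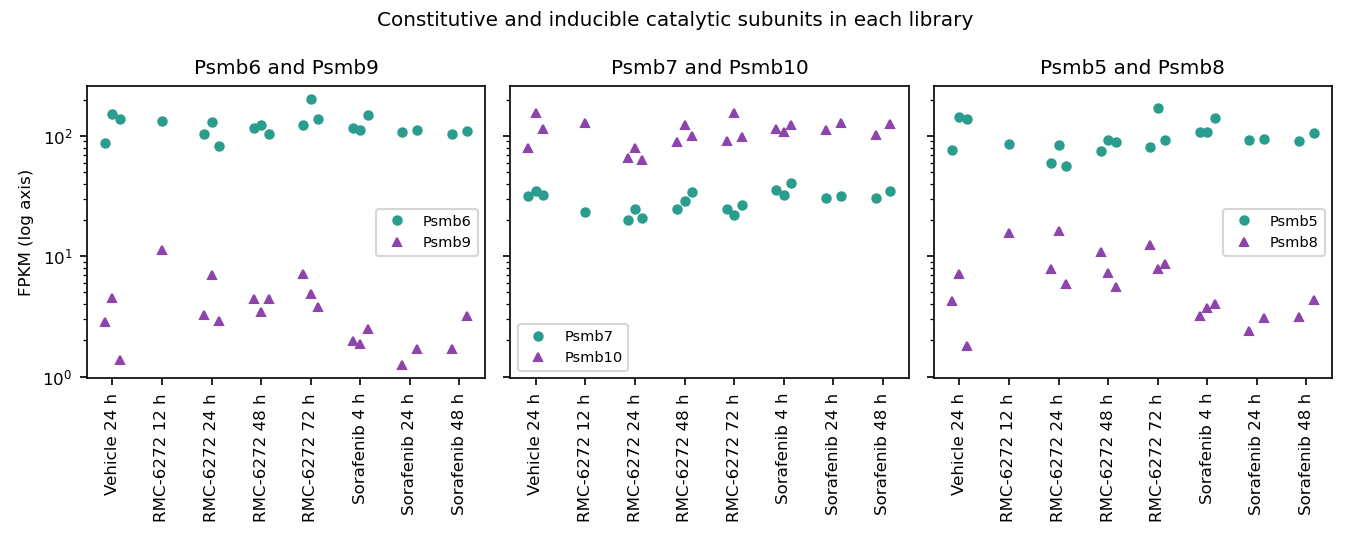
FPKM (vertical log axis) of each constitutive catalytic gene (circles) and its inducible counterpart (triangles) in each library of 8 groups (horizontal axis). Psmb9 and Psmb8 lie below their partners in every library, Psmb8 at 18.2% of Psmb5 at RMC-6272 12 h against 1.28 to 5.56% in vehicle, while Psmb10 lies above Psmb7 throughout.

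The single library at 12 h of RMC-6272 has no replicate. Its median member lay 0.31 below the vehicle mean on the log2 scale, and 32 of 35 members were below that mean. Psmd7 read 78.1 FPKM, Psmd14 28.8 FPKM and Psma3 44.7 FPKM, each between the vehicle libraries and those at 24 h. Psmb10 at 129 FPKM lay within the vehicle range, and Psmb8 at 15.7 FPKM above it. Summed markers were also above vehicle: hepatocyte 19729 FPKM (3162 to 5912 in vehicle), macrophage 2152 (501 to 688), neutrophil 70.4 (1.28 to 2.92) and red cell 1738 (34.8 to 261). The stellate sum of 55.8 FPKM and the bile duct sum of 33.7 FPKM lay within the vehicle range. The part of these in the proteasome values of this library was not tested.

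By 48 h no member differed from vehicle beyond the test. The count was 0 of 35 with limma (6 at an unadjusted p under 0.05; 0.11% of all genes were called), although 33 of 35 differences were negative, with a median of -0.29. Psmd7 read 71.9, 106 and 96.9 FPKM at 48 h, all below its lowest vehicle library of 108 FPKM, and Psmd14 read 27.3, 37.5 and 37.3 FPKM, all below 38.7 FPKM. Their log2 differences from vehicle were -0.37 and -0.29. RMC-6272 replicate 1 was the lowest of the 3 for 25 members. Compared with 24 h, 31 of 35 members were higher at 48 h and for 10 the libraries did not overlap, against 13.6% of all genes in this direction, led by Psmd7 (log2 difference 0.70) and Psmd14 (0.62). None of these passed with limma (11 at an unadjusted p under 0.05; smallest adjusted p 0.0677, for Psmd14; 0.5% of all genes were called). Without 48 h replicate 1 the count was 4, with 5.36% of all genes called.

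At 72 h fewer members passed the test. Lower than vehicle were 9 of 35 members (15.8% of all genes fell): Psmd1, Psmd2, Psmd6, Psmd7, Psmd11, Psmd12, Psmd5, Psma5 and Psmb7. Of these, 7 had also fallen at 24 h. Members of the regulatory particle and its chaperones made up 7 of the 9, with 4 of 8 lid genes and 2 of 3 base genes outside the ATPase ring, but 0 of 6 ATPases. The members' median was -0.23. No difference between 24 and 72 h was tested, and between 48 and 72 h none of the 35 passed (4 at an unadjusted p under 0.05; 0% of all genes called).

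Psmd1 carried the largest difference at 72 h, with 13.0, 9.28 and 8.41 FPKM against 17.0 to 22.9 FPKM in vehicle. The groups did not overlap, and the log2 difference was -0.88 (SE 0.16, limma adjusted p = 0.0054). Psmd7 followed at 71.3, 76.3 and 54.8 FPKM, a log2 difference of -0.80 (SE 0.18, adjusted p = 0.00968). Psmd5, the chaperone of the ATPase Psmc2, was at 6.57, 6.06 and 6.76 FPKM against 7.96 to 10.5 FPKM, and fell by 0.41 (adjusted p = 0.0222). Psmd11 was at 19.5, 15.1 and 14.2 FPKM and fell by 0.43 (adjusted p = 0.0414). Psmd14, among the clearest at 24 h, was at 27.9, 34.6 and 31.9 FPKM, below all vehicle libraries, with a log2 difference of -0.39 that did not pass (adjusted p = 0.0647). Psmb10 was back within the vehicle range at 91.1, 155 and 97.8 FPKM (log2 difference -0.01), while Psmb8 at 12.5, 7.81 and 8.69 FPKM was higher (1.09, adjusted p = 0.0406).

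The 72 h libraries disagreed on several genes. Replicate 2 had the highest value of all 20 libraries for 8 members, 4 of them beta-ring genes (Psmb3, Psmb4, Psmb5 and Psmb6), and the summed FPKM of the 35 genes was 2094, 2803 and 2268. Psmb3 read 82.8, 179 and 84.8 FPKM and Psmb5 80.4, 170 and 92.1 FPKM, so that replicate 2 stood above all 3 vehicle libraries. Replicate 3, the shallowest library, was highest of all 20 for Psma6, Psmd4, Psmd8 and Psmd10: Psmd8 read 63.5, 39.4 and 136 FPKM and Psmd4 60.8, 80.3 and 83.9 FPKM. With that library left out of the fit altogether, 4 members passed at 72 h rather than 9, and 17.6% of all genes were called. Leaving out single libraries from this comparison gave 2 without vehicle replicate 1 and 3 without vehicle replicate 2 or replicate 3. It gave 4 without 72 h replicate 1 or replicate 3, and up to 11 otherwise. In those fits 13.3 to 38.7% of all genes were called. A fit to these 2 groups alone gave 0, with 0% of all genes called. Under TPM scaling 28 members were lower at 72 h, with 43.4% of all genes called. The median of all genes then also shifted by -0.45 on the log2 scale, and the members' median was -0.74. Cell-type markers moved at 72 h too, where 10.7% of all genes rose. Of those tested, 4 of 4 neutrophil markers rose (summed FPKM 13.5 to 2666 against 1.28 to 2.92 in vehicle), 3 of 8 of hepatocytes (6769 to 22917 against 3162 to 5912), 2 of 8 of macrophages (770 to 1700 against 501 to 688) and 2 of 6 of stellate cells (46.1 to 94.9 against 31.8 to 84.4). Also higher were 2 of 6 endothelial markers (13.8 to 90.4 against 7.43 to 18.6), 1 of 4 of T and NK cells (7.05 to 15.1 against 4.09 to 4.95) and 1 of 3 of red cells (102 to 28371 against 34.8 to 261). Neither the 3 bile duct markers nor the 1 B cell marker tested passed. None of these lists had a marker that fell, and the part of these markers in the proteasome values was not tested.

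Genes around the proteasome also divided at 72 h. Psme3 (-0.75), Usp14 (-0.64) and Vcp, the segregase that hands substrates to the proteasome (-0.81), were lower on the log2 scale. None of the 5 assembly factors passed (Psmg3 -0.24, Pomp 0.35). Sem1, the smallest lid subunit, was higher (log2 difference 0.90, limma adjusted p = 0.04). Of 87 cytosolic ribosomal protein genes 24 rose and 1 fell, and of 77 mitochondrial ones 2 rose and 11 fell, where 10.7% of all genes rose and 15.8% fell.

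Sorafenib gave no call among the members. At 4 h the members' median log2 difference from vehicle was 0.00, at 24 h -0.24 and at 48 h -0.18. Limma called 0 of 35 at each time (0, 4 and 0 at an unadjusted p under 0.05), and 0.00736%, 0% and 0% of all genes. At 24 h, 31 of 35 differences were negative, and both sorafenib libraries lay below all vehicle libraries for 17 members, an ordering that 17% of all genes showed. The 4 genes at an unadjusted p under 0.05 there were Psmc2 (log2 difference -0.51, 95% interval -0.91 to -0.10), Psmd12 (-0.43), Psmd14 (-0.38) and Psmd6 (-0.37). Psmc2 read 20.1 and 24.7 FPKM against 27.4, 33.8 and 35.5 FPKM. A test across the 3 sorafenib times called none (0 at an unadjusted p under 0.05; 0.00736% of all genes).

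Psmd7 showed the clearest contrast between the drugs at 24 h. It read 104 and 115 FPKM with sorafenib, the first just below and the second within the vehicle range of 108 to 130 FPKM, and 46.2 to 62.3 FPKM with RMC-6272. The log2 difference between the drugs was -0.98 (SE 0.20, limma adjusted p = 0.00784). In all, 6 of 35 members were lower with RMC-6272 than with sorafenib at 24 h (11.3% of all genes were): Psmd7, Psmd3, Psmd9, Psmd14, Psmb7 and Psma3. Psmd14 read 30.2 and 33.2 FPKM with sorafenib, above the highest RMC-6272 value of 24.9 FPKM. Psmb10, at 113 and 127 FPKM with sorafenib, had a log2 difference of -0.79 that did not pass (adjusted p = 0.0521). Psmb8 (1.44) and Psmb9 (1.05) were higher with RMC-6272. Doses, routes and schedules differed between the drugs. Without RMC-6272 replicate 1 or replicate 3 the count was 1, with 9.64% and 15.8% of all genes called. Leaving out a sorafenib library left a lone one in that group. The members' median log2 difference was then -0.37 without sorafenib replicate 1 and -0.23 without replicate 2.

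At 48 h RMC-6272 and sorafenib were not told apart by any member (0 of 35 with limma, 1 at an unadjusted p under 0.05; 0.00736% of all genes called). The step from 24 to 48 h was tested for a difference between the drugs, with no member passing (0 of 35, 2 at an unadjusted p under 0.05; 0% of all genes). Those 2 were Psmd14 and Psmd7, which gained 0.51 (95% interval 0.01 to 1.02) and 0.61 (0.00 to 1.21) more on the log2 scale with RMC-6272 than with sorafenib.

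The doxycycline and RMC-4627 columns are given apart because their low values do not fall on whole reads at the exon lengths that fit the other 20 (at most 5.20% of low values, against at least 98.2%). With doxycycline, both libraries lay above the range of all 20 others for 15 members and below it for 6. Psmb1, another beta subunit, read 279 and 309 FPKM, against 39.0 to 55.3 FPKM in the 20, and Psmc6 205 and 154 FPKM against 23.9 to 42.3 FPKM. Psmb2 was lower, at 35.5 and 28.7 FPKM against 74.9 to 141 FPKM. Treatment and quantification cannot be told apart in these differences. The doxycycline libraries themselves were close, with a median gap of 0.19 between them on the log2 scale.

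RMC-4627 replicates disagreed with each other. They differed more than 2-fold for 21 of 35 members, with a median gap of 1.35 on the log2 scale, against 0.08 to 0.41 between pairs of libraries in every other group. Psmc3 read 439 and 3.81 FPKM, Psmb3 239 and 2.55 FPKM, Psmd4 266 and 3.72 FPKM, and Psma6 594 and 65.6 FPKM. Psmc4 read 32.1 and 29.6 FPKM and Psma3 134 and 169 FPKM, so that some members did match. The larger value was not always in replicate 1: Psmb5 read 9.70 and 47.1 FPKM, and Psmd5 3.02 and 17.2 FPKM. Between doxycycline and RMC-4627, limma on the 4 libraries alone called 0 of 35 members (0 at an unadjusted p under 0.05; 0% of 11058 genes). Without RMC-4627 replicate 1 the members' median log2 difference was 0.36, and without replicate 2 it was -0.06. That of all genes was 0.10 and -0.14. Each such fit rested on a lone library assumed to vary like the doxycycline pair.

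**Figure D5:**
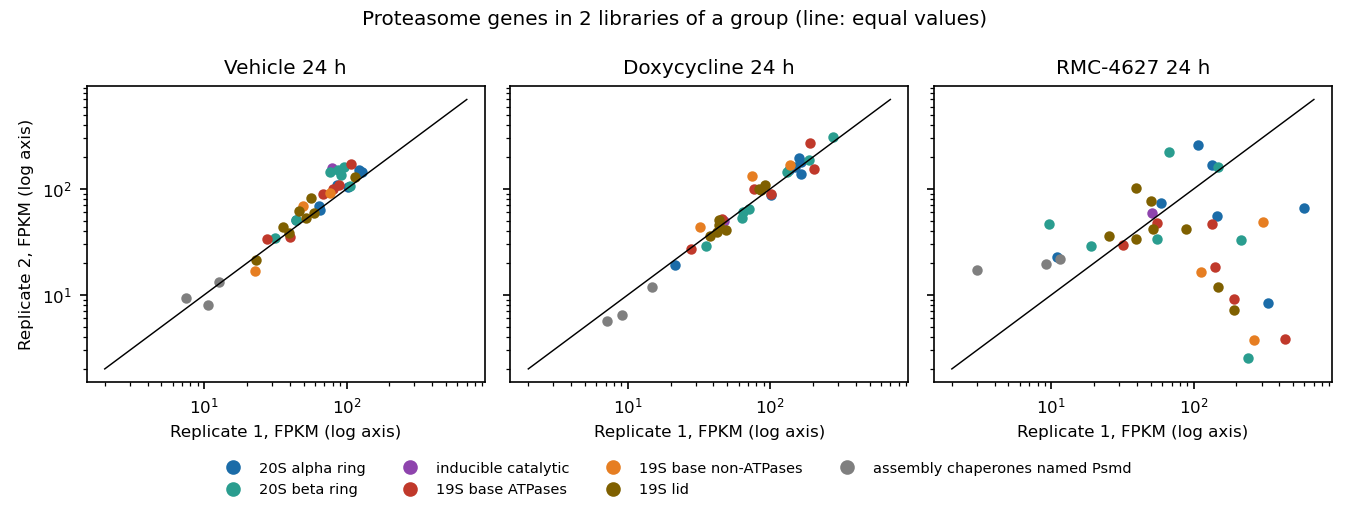
Each point is 1 of the 35 genes, with FPKM in replicate 1 (horizontal log axis) against replicate 2 (vertical log axis) for vehicle, doxycycline and RMC-4627, coloured by role; the line marks equal values. Vehicle points lie at a median gap of 0.29 on the log2 scale (up to 0.98, for Psmb10) and doxycycline points at 0.19, none of them more than 2-fold from the line, while 21 RMC-4627 points are.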

How the data were processed

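FPKM values per gene, as deposited by the authors for 24 libraries, were used unchanged. The submitters' processing notes name STAR 2.5, HTSeq 0.6.1 and build mm9, with no roles given; the annotation and exon lengths behind the FPKM are not given in the sources used here. Of 54532 entries, 27 with a date as name and 102 less abundant entries of a repeated symbol were left out. Depth was estimated from whole-read steps of low FPKM at exon lengths of GENCODE M21 (98.2 to 98.8% of low values within 0.02 of a whole read in 20 libraries). No mm9 coordinates are given; promoters are from RefSeq on GRCm38.p6.

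The 20 vehicle, RMC-6272 and sorafenib libraries were fitted together with limma 3.58.1 in R 4.3.3 on log2(FPKM + 1), with a mean per group and an intensity trend. Genes needed 1 FPKM in at least 2 libraries. Tests were two-sided, with Benjamini-Hochberg adjustment over all 13594 genes at 0.05. Differences on this scale understate changes of low genes. Expression ratios between catalytic partners were compared with exact permutation tests. The fit was tested on simulated data.

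The members and all gene lists were chosen with earlier results of these data known. Values in every library are given for the members with the smallest and largest p at 24 h in each role, and for Psmb5, Psmb7, Psmb10, Psmd11 and Psmd14. Others such as Psmd7 and Psmb3 were chosen after their values were seen. Named pathway genes are mostly those with the smallest p in their list. Psmb8, Psmb9, Psme1, Psme2, Nfe2l1 and Pomp were named whatever their p, and Nfya beside the other NF-Y subunits. Paaf1 and Hbb-b1 were not found by symbol and were not analysed here. Alternatives covered the pseudocount, the filter, scaling, which libraries enter the fit, blocks by replicate number or description code, and leaving out single libraries.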

Additional observations from a re-analysis of the deposited data

How the results depend on the processing

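Of 203 recomputed counts of members called, 169 stayed within 1.5 times the reported count, 24 were lower and 10 higher. Those 169 include every count of 0 that stayed at 0, and most comparisons called no member. The total therefore says little about the counts above 0. At 72 h against vehicle and at 24 h against sorafenib, most alternatives moved the count past that limit. With RMC-6272 at 24 h against vehicle (21 called), the count was 8 of 35 with all 24 libraries in the fit. There 21.7% of all genes were called in either direction. Leaving out single libraries gave 12 (without vehicle replicate 3 or RMC-6272 replicate 1, 24.5% and 26.8% of all genes) to 26 (29.1%). At 72 h against vehicle (9 called) the count was 4 with no filter (7.09% of all genes called) and 28 under TPM (43.4%). It was 4 under median-ratio scaling (25.4%), 18 under quantile normalization (28.1%) and 0 with 24 libraries (11.6%). With the description code as a random block it was 5 (23.3%), and with the compared groups alone 0 (0%). Without the shallowest 72 h library in the whole fit, an alternative chosen after seeing the data, it was 4 (17.6%). Single libraries left out gave 2 (without vehicle replicate 1, 13.3%) to 11 (38.7%). RMC-6272 against sorafenib at 24 h (6 called) gave 2 with no filter, 3 under median-ratio scaling and 3 under quantile normalization. It gave 0 with 24 libraries and 3 with the compared groups alone. In that order 5.27%, 18%, 18.3%, 8.54% and 24.3% of all genes were called. Single RMC-6272 libraries left out gave 1 (without replicate 1 or replicate 3, 9.64% and 15.8%) to 7 (without replicate 2, 11.7%). Fits without a sorafenib library left a lone one, and their counts are not given. From 24 to 48 h of RMC-6272 (0 called) the count was 1 under quantile normalization (0.986% of all genes) and 2 without the shallowest 72 h library (2.99%). Single libraries left out gave 0 to 4 (4 without 48 h replicate 1, 5.36%). From 48 to 72 h (0 called) it was 17 under TPM, where 28% of all genes were called. The median of all genes then shifted by -0.45 on the log2 scale, as did the members' median. Single libraries left out gave 0 to 1 (1 without 72 h replicate 1, 11.2%). Doxycycline against RMC-4627 ranged from 0 to 19 (19 without RMC-4627 replicate 1). The fit behind that 19 kept a lone RMC-4627 library, and many genes outside the proteasome were called in it as well. The 19 is therefore no result about the proteasome genes in particular. In that fit the members' median log2 difference was 0.36 and that of all genes 0.10. Other comparisons gave 0 under each alternative. The cause of these shifts was not tested.

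Replicate numbers did not pair libraries: deviations of same-numbered libraries correlated at a median of 0.02 (-0.50 to 0.49 over 52 pairs). With the replicate number as a block, 22 members passed at 24 h, 8 at 72 h, 9 against sorafenib at 24 h and 1 from 24 to 48 h. The shares of all genes called were 34.7%, 25.4%, 18.6% and 1.46%.

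Signs at 24 h turned for Psmd10 (-0.082 under TPM, -0.033 without RMC-6272 replicate 1, range -0.033 to 0.23 with single libraries left out), Psmd4 (0.0029 under quantile normalization), Psmb4 (0.092 without vehicle replicate 2, 0.061 without RMC-6272 replicate 3, range -0.29 to 0.092), Nfe2l1 (-0.037 under TPM) and Psme2 (0.052 under quantile normalization, 0.063 without vehicle replicate 3, 0.069 without RMC-6272 replicate 3, range -0.30 to 0.069); none of these passed the test. TPM shifted the median of all genes by -0.15 at 24 h. The fewest reads, 487 in 1 library, were behind Psmd10, and groups of 2 or 3 limit every test.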
